A study of Rattus norvegicus with 6 samples.

Results

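The 29 genes described here encode enzymes of cholesterol synthesis, the proteins that control this synthesis, and proteins of cholesterol uptake, transport, efflux and storage. They were taken by symbol from a table of 21026 genes, and all 29 were found and passed the filter on low counts. Polyadenylated RNA came from rat (Rattus norvegicus) mesenchymal stem cells of the bone marrow, and the labels call 3 libraries Young and 3 aged. These adherent stromal cells of the marrow are able to become bone, cartilage and fat cells. The labels give the same cell type and no other treatment for either group, and strain, sex, age in months, culture and passage were not given in the sources used here. Library titles mark each one as a biological replicate but do not say that replicates came from separate animals. Hence the spread behind each p-value is that between libraries and may not be that between animals. By its title, the study asked about mitophagy, endogenous dsDNA and how well bone heals in the elderly.

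Cells make cholesterol from acetyl-CoA. The mevalonate steps build an isoprenoid, the squalene steps join and close it to lanosterol, and a last series of steps trims lanosterol to cholesterol. When membrane cholesterol is low, the protein Scap carries the transcription factor SREBP-2 (gene Srebf2) from the endoplasmic reticulum to the Golgi, where proteases release it to switch on the synthesis genes, and the Insig proteins hold the complex back when sterol is plentiful. Oxysterols activate the nuclear receptors LXR-beta and LXR-alpha (genes Nr1h2 and Nr1h3), which switch on the efflux pumps Abca1 and Abcg1 and the ubiquitin ligase Mylip, which marks lipoprotein receptors for destruction. In marrow stromal cells, sterols and oxysterols are known to affect the choice between bone and fat fates.

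The young and aged libraries held 34638874 to 42479626 counts. Values are CPM, the share of a library's counts on a common scale, adjusted by TMM factors, which centre the bulk of genes on no change, and fold changes are aged over young. A gene was called when its edgeR quasi-likelihood test had a Benjamini-Hochberg adjusted p under 0.05 over 14273 genes tested, and 86.4% of all tested genes were called. The stromal collagen genes were abundant in both groups, with Col1a1 at 19590 ± 202 and 10930 ± 41.6 CPM, Col1a2 at 11650 ± 298 and 6367 ± 76.4 CPM, and Col3a1 at 4053 ± 76.4 and 2236 ± 10.5 CPM (SD, n = 3 each). Of the 12 stromal markers, 8 were called lower in aged cells, 2 higher and 2 not called, beside 41.8% lower and 44.7% higher of all tested genes. Named after their values were seen, Cxcl12 fell from 3387 to 203 CPM and Nt5e rose from 10.5 to 47.3 CPM. Vcam1 (means 0.360 and 0.702 CPM) and Lepr (0.120 and 0.544 CPM) were scarce in both groups. The blood cell markers Ptprc and C1qa had 1 and 0 counts in all 6 libraries, but Cd14 of the same list had means of 80.7 CPM in young and 21.0 CPM in aged cells. The tested markers of that list are given further below. Scaling by library total alone raised the fold changes of the 29 members by 0.336 on the log2 scale, and the median of all tested genes rose by as much. Mitochondria-encoded transcripts took 1.07% to 1.36% of counts in young and 4.25% to 4.46% in aged libraries, and the part of this shift in the results was not tested. In bulk RNA, fewer cells of a type and less RNA per cell cannot be told apart.

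Promoters were read from a RefSeq table (assembly GRCr8), each from 250 bases before to 50 bases after the annotated start, and 24 of the 29 members were matched by symbol. Pmvk, Fdft1, Sqle, Stard4 and Abcg1 were not matched. The box CCAAT, to which the factor NF-Y binds beside SREBP at sterol genes, was searched on both strands, so that ATTGG is the same match read from the other strand. It was present in 17 of the 24 member promoters (70.8%), against 37.7% of all 27457 promoters of that length. Among the synthesis enzymes, 12 of 15 promoters held it. The Sp1 box GGGCGG was present in 79.2% of member promoters, 34.9% of all promoters and 60.8% of promoters of tested genes. A match is a description of the letters in the window and not a site shown to be bound.

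The promoters of Mvk and Nsdhl are shown because both genes held 5 CCAAT boxes, a number reached by 0.251% of all promoters, and moved in opposite directions. Capitals mark CCAAT and ATTGG in the 250 bases before the start, 5′ to 3′ on the strand of the gene. The Mvk stretch is chr12:47819504-47819753 on the minus strand and the Nsdhl stretch is chrX:155817110-155817359 on the plus strand.
Mvk: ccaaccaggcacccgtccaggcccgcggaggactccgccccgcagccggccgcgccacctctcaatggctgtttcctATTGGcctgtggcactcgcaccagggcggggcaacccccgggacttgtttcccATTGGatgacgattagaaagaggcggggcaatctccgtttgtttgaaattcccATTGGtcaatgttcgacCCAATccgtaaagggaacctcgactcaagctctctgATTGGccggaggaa
Nsdhl: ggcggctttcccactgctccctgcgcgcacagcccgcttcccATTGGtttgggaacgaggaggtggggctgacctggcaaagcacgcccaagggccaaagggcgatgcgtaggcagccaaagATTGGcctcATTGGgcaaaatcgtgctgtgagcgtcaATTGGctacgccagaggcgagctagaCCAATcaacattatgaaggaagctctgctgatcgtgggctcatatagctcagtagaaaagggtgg

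The promoters of Srebf2 and Abca1 are shown because these genes had the strongest fall among the SREBP control genes and the strongest rise of the 29. The motifs TCACNCCA, the core of a sterol regulatory element, and a shortened half-site pair of LXR were chosen after the sequences were seen. The pair, which LXR binds with its partner RXR, was searched as GGTTA and GGTCA, each half-site shortened to 5 letters. The 5 bases between these letters include part of a half-site and are not the spacing of the full pair. TCACNCCA was present in 3.91% of all promoters and, among the 24 members, in Srebf2 at positions -156 to -149 and in Msmo1 at -190 to -183. Its longer form TCACNCCAC, which contains it, was present in 1.13% of all promoters and in 0 of the 24. The half-site pair, searched on both strands like the other motifs, was present in 0.0401% of all promoters and, among the members, in Abca1 at positions -70 to -56 on the opposite strand. Position -1 is the base before the annotated start. The Srebf2 stretch is chr7:115543057-115543306 on the plus strand and the Abca1 stretch is chr5:72596474-72596723 on the minus strand, and capitals mark these motifs.
Srebf2: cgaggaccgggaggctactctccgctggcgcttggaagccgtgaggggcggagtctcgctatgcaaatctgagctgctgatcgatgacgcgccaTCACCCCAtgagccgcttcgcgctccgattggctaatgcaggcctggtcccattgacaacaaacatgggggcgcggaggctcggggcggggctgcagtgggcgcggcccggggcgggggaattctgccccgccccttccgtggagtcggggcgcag
Abca1: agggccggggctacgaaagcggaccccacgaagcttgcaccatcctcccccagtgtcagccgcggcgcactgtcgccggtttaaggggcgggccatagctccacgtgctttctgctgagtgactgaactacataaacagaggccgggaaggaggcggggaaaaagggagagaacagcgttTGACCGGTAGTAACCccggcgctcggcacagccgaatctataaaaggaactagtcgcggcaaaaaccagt

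The cholesterol genes split between the groups instead of moving one way. Of the 29 members, 10 were called higher in aged cells and 15 lower, and 4 were not called. The share called, 86.2%, was close to the 86.4% of all tested genes, of which 44.7% were called higher and 41.8% lower, so the count alone says little about these genes. Changes of at least 2-fold were called for 5 members upward and 5 downward, together 34.5% of members against 50.4% of all tested genes. The median log2 fold change was -0.13, beside 0.05 for all tested genes, and the median size of change regardless of sign was 0.70 beside 1.02. The 3 libraries of each group did not overlap for 25 members, and for 87.5% of all tested genes. Against a minimum change of 1.5-fold, 14 members were called, beside 61.4% of all tested genes. The largest member change, that of Abca1, lay at the 76.6th percentile of all tested genes by size. Scaled by library total, 15 members were called higher and 11 lower, so the share of called members that were higher went from 40% to 57.7%. Under that scaling Mvd, Cyp51, Hsd17b7, Scap, Insig1, Insig2 and Nr1h3 changed sign.

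**Figure D1:**
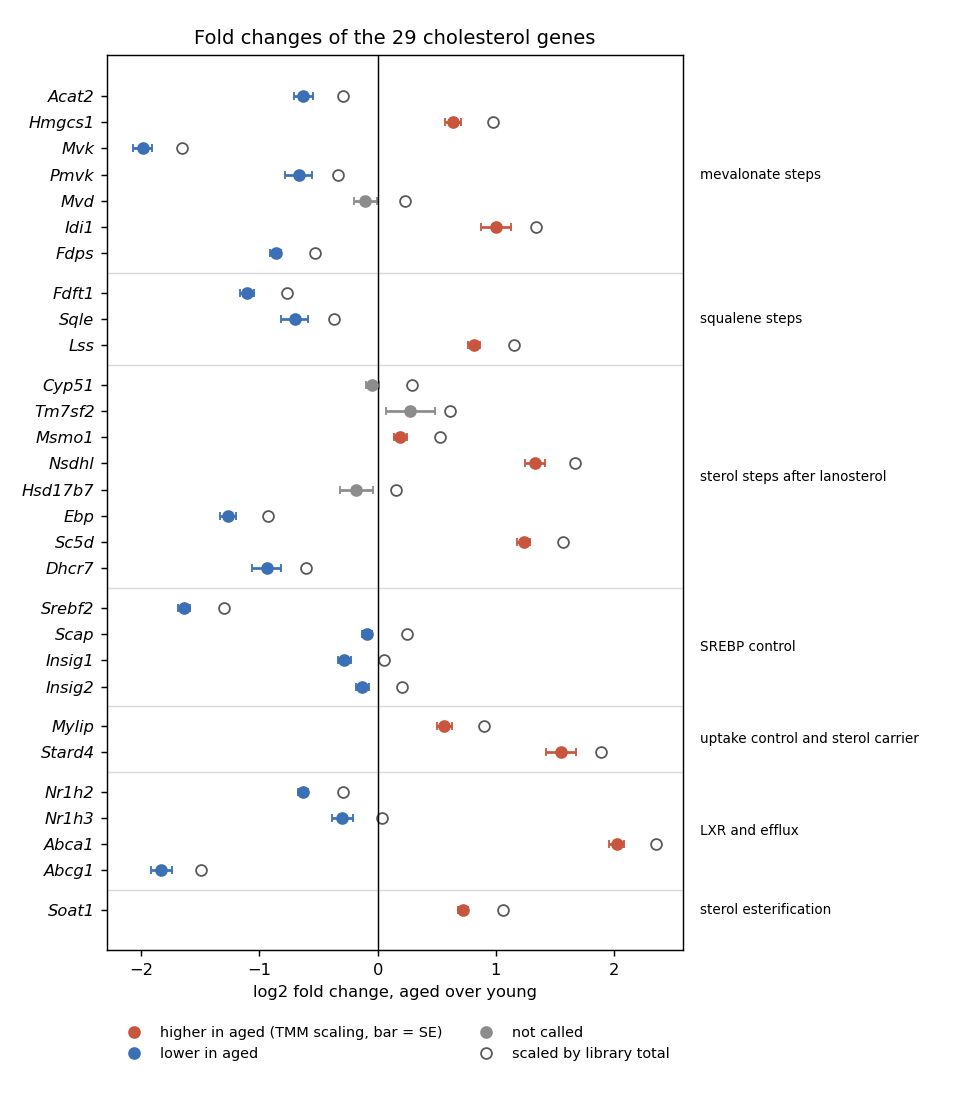
Log2 fold changes (aged over young, horizontal axis) of the 29 members, grouped by role, with filled points for TMM scaling (bars are standard errors, n = 3 libraries per group) and open circles for scaling by library total. Abca1 at 2.02 and Mvk at -1.99 mark the ends, and 7 members near 0 lie on opposite sides of 0 under the different scalings.

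In the mevalonate steps, 2 of 7 enzyme genes were higher in aged cells, 4 were lower and 1 was not called, with a median log2 fold change of -0.63. Mvk, mevalonate kinase, which adds the first phosphate to mevalonate, measured 31.97, 32.4 and 31.3 CPM in the young libraries and 7.73, 7.86 and 8.59 CPM in the aged ones. The groups lay far apart, and Mvk fell by 1.99 on the log2 scale (SE 0.08, adjusted p = 9.6e-14), which is 3.96-fold. Hmgcs1, the synthase that makes HMG-CoA earlier in the pathway, moved the other way, with 37.1, 33.0 and 31.2 CPM in young and 52.7, 51.9 and 52.9 CPM in aged libraries. Every aged library exceeded every young one, and the rise was 1.55-fold (log2 0.64, SE 0.06, adjusted p = 5.2e-08). Acat2, the cytosolic thiolase that begins the pathway, had 32.1, 32.7 and 32.6 CPM in young and 22.5, 18.1 and 22.5 CPM in aged cells. All aged values were lower, by 1.55-fold (log2 -0.63, SE 0.08, adjusted p = 1.2e-06).

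Pmvk, phosphomevalonate kinase, the enzyme after Mvk, measured 15.8, 13.4 and 14.7 CPM in young and 7.68, 10.04 and 9.87 CPM in aged libraries. It fell 1.59-fold without overlap (log2 -0.67, SE 0.11, adjusted p = 2.7e-05). Mvd, the decarboxylase that makes isopentenyl diphosphate, had 16.1, 15.9 and 18.7 CPM against 17.6, 15.5 and 14.1 CPM, and was not called (adjusted p = 0.32). The values of the groups were interleaved. Idi1, the isomerase that turns this product into its reactive form, had 4.05, 4.38 and 4.70 CPM in young and 7.75, 9.01 and 9.54 CPM in aged cells, a 2-fold rise (SE 0.13 on the log2 scale, adjusted p = 1.4e-06). Fdps, farnesyl diphosphate synthase and the target of bone-sparing bisphosphonates, went from 107, 100.5 and 101 CPM to 55.5, 56.4 and 58.2 CPM. It was lower in every aged library by 1.82-fold (log2 -0.86, SE 0.05, adjusted p = 8.9e-12). RefSeq names pseudogenes of Fdps, Idi1, Acat2, Cyp51 and Nsdhl, and a near copy of Acat2 has its own row in the table, so reads of these genes may be shared and their values are less certain.

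Within the squalene steps, 1 of 3 enzyme genes rose and 2 fell. Fdft1, squalene synthase, which commits farnesyl diphosphate to sterols, had 61.2, 57.5 and 57.2 CPM in young and 27.9, 27.2 and 26.5 CPM in aged libraries. The young values were all above the aged ones, a 2.15-fold fall (log2 -1.11, SE 0.06, adjusted p = 4.6e-12). Sqle, squalene epoxidase, which carries out a rate-limiting oxidation, showed 15.1, 18.8 and 15.7 CPM against 10.9, 8.62 and 11.1 CPM. It fell 1.63-fold (log2 -0.70, SE 0.11, adjusted p = 1.6e-05). Lss, the synthase that closes the ring to lanosterol, had 49.9, 48.9 and 53.3 CPM in young and 85.9, 90.0 and 91.6 CPM in aged libraries. All aged values were higher, by 1.76-fold (log2 0.82, SE 0.05, adjusted p = 6.4e-11).

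After lanosterol, 3 of 8 enzyme genes were higher in aged cells, 2 were lower and 3 were not called, with a median log2 fold change of 0.07 that was 0.41 when scaled by library total. Nsdhl, a dehydrogenase that removes methyl groups at carbon C-4, measured 8.15, 8.65 and 9.29 CPM in young and 21.5, 21.7 and 22.4 CPM in aged libraries. The aged libraries stood well above the young ones, a 2.51-fold rise (log2 1.33, SE 0.09, adjusted p = 9.3e-11). Sc5d, the desaturase that acts near the end of the pathway, went from 31.8, 33.4 and 30.6 CPM to 74.2, 75.3 and 75.8 CPM. Its rise was 2.35-fold (log2 1.23, SE 0.05, adjusted p = 3.6e-13). Ebp, the isomerase that acts just before Sc5d and also binds many drugs, had 41.3, 39.8 and 41.1 CPM in young and 16.6, 16.3 and 18.0 CPM in aged cells. Here every aged library was below every young one, by 2.4-fold (log2 -1.26, SE 0.07, adjusted p = 6e-12). Dhcr7, the reductase that converts 7-dehydrocholesterol, the precursor of vitamin D, to cholesterol, showed 11.3, 10.2 and 12.1 CPM against 5.79, 6.51 and 5.15 CPM. It fell 1.92-fold (log2 -0.94, SE 0.12, adjusted p = 1e-06).

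The other post-lanosterol genes among the 29 members differed little. Outside the members, Lbr fell 2.48-fold (56.4 to 22.7 CPM), Erg28 2.11-fold and Faxdc2 3.23-fold. These were named after their values were seen. They belong to the 10 other sterol and oxysterol enzyme genes given below, of which 8 fell, 1 rose and 1 was not called. Msmo1, the oxidase that starts the removal of the C-4 methyl groups, had 50.7, 56.1 and 56.3 CPM in young and 63.6, 59.6 and 63.1 CPM in aged libraries. Its 1.14-fold rise was called (log2 0.19, SE 0.06, adjusted p = 0.004), but not without young replicate 1 (log2 0.12, adjusted p = 0.054). Cyp51, the demethylase that takes lanosterol into these steps, had 62.1, 59.0 and 61.2 CPM against 59.5, 62.1 and 55.2 CPM and was not called (adjusted p = 0.45). The groups overlapped for this gene and for the next pair. Tm7sf2, a sterol reductase, had 2.74, 2.85 and 3.41 CPM in young and 3.003, 3.14 and 4.79 CPM in aged libraries (adjusted p = 0.21), with the third aged library above the others. Hsd17b7, the keto-reductase that completes the C-4 demethylation, had 5.24, 6.86 and 6.94 CPM against 5.64, 6.05 and 5.10 CPM (adjusted p = 0.24), and among the alternatives run was called lower only without young replicate 1 (log2 -0.32, adjusted p = 0.041). Summed over the 18 synthesis enzymes, the level was 580 ± 4.94 CPM in young and 549 ± 4.92 CPM in aged cells (SD, n = 3 each), a sum dominated by the most abundant transcripts. The direction of such a sum depends on the scaling. All 29 members summed to 1218 CPM in young and 1197 CPM in aged cells after TMM. As a share of all counts, they took 0.108% to 0.109% in young and 0.134% to 0.136% in aged libraries.

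**Figure D2:**
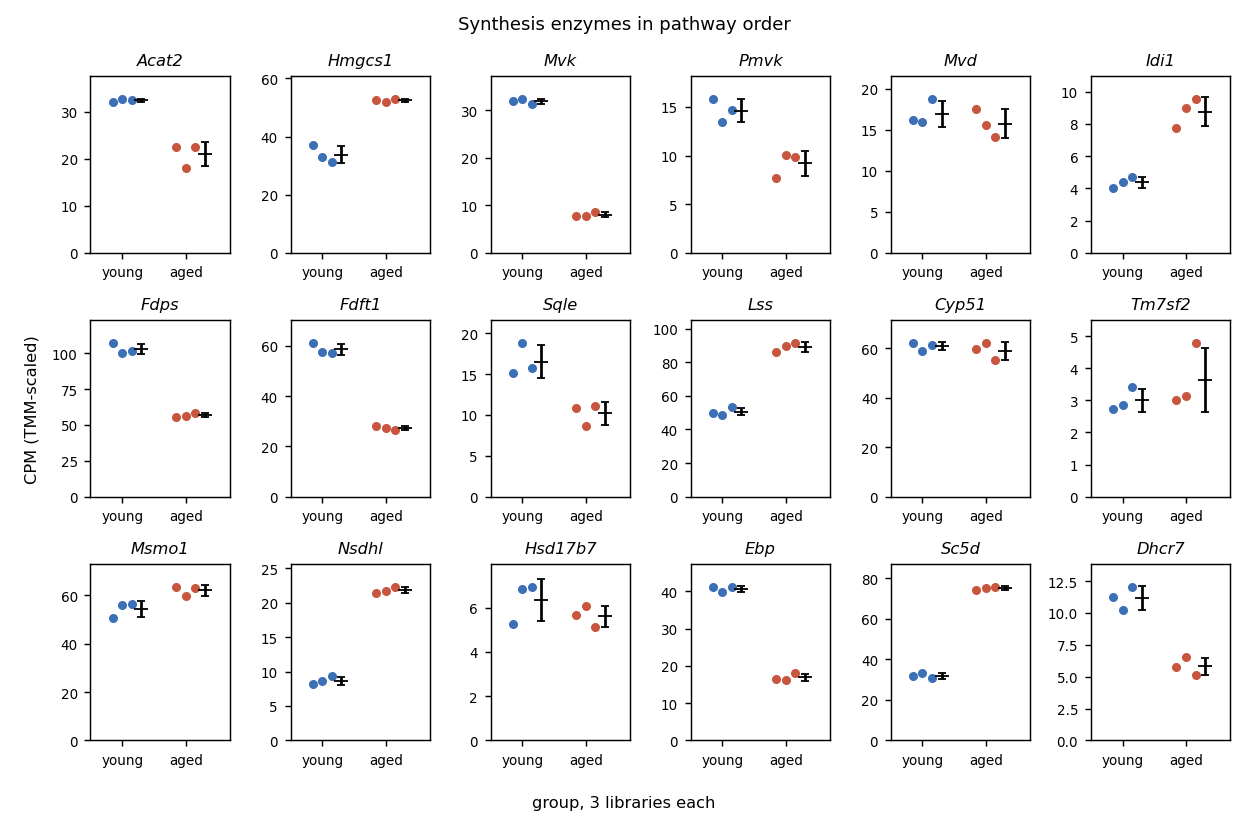
TMM-scaled CPM (vertical axes from 0) of the 18 synthesis enzyme genes in pathway order, with a point for each of the 3 young and 3 aged libraries and the mean ± SD beside them. Groups overlap for Mvd, Cyp51, Tm7sf2 and Hsd17b7 and lie apart for the other 14 genes.

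All 4 genes of SREBP control were called lower in aged cells, as were 41.8% of all tested genes, but only Srebf2 by a large margin. Srebf2, the transcription factor gene of the pathway, had 103, 102 and 105 CPM in young and 33.2, 34.4 and 32.2 CPM in aged libraries. The fall was 3.11-fold (log2 -1.64, SE 0.05, adjusted p = 2.2e-15), and it stayed at -1.30 when scaled by library total. Insig1, the retention protein whose gene is itself an SREBP target, had 63.2, 66.0 and 62.2 CPM against 54.9, 52.3 and 50.6 CPM, 1.21-fold lower (adjusted p = 9.1e-05). Insig2, the second retention protein, measured 51.1, 53.4 and 49.1 CPM in young and 45.2, 47.4 and 47.8 CPM in aged libraries (log2 -0.13, adjusted p = 0.037). Scap, the sterol sensor that escorts SREBP, had 118, 118 and 116 CPM against 113.6, 109 and 108 CPM (log2 -0.09, adjusted p = 0.049). Scaled by library total the log2 values of Insig1, Insig2 and Scap became 0.06, 0.21 and 0.25, the last pair being called higher. The Insig2 call was lost without young replicate 2 (log2 -0.10, adjusted p = 0.076), aged replicate 1 (log2 -0.105, adjusted p = 0.14) or aged replicate 2 (log2 -0.14, adjusted p = 0.063). The Scap call was lost without aged replicate 2 or 3 (log2 -0.08, adjusted p = 0.13 each). Without aged replicate 2, therefore, 2 of these 4 genes remained called lower.

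Mylip and Stard4, which act on uptake and on sterol transport inside the cell, were both higher in aged cells. Mylip showed 28.7, 29.3 and 32.9 CPM in young and 44.0, 45.5 and 44.7 CPM in aged libraries. Its rise was 1.48-fold (log2 0.56, SE 0.06, adjusted p = 2.6e-07). Stard4, a soluble carrier that moves cholesterol between membranes and an SREBP target, had 3.16, 3.72 and 3.81 CPM in young and 11.2, 10.3 and 9.77 CPM in aged cells. The rise was 2.93-fold (log2 1.55, SE 0.13, adjusted p = 3e-09), with no aged library near the young range.

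Of the LXR and efflux genes, 1 of 4 rose and 3 fell, and the pumps Abca1 and Abcg1 moved in opposite directions. Abca1, which loads cholesterol onto lipid-poor apolipoprotein, had 29.5, 33.9 and 29.5 CPM in young and 132, 125.9 and 119 CPM in aged libraries. It rose 4.06-fold (log2 2.02, SE 0.06, adjusted p = 1.9e-15). Abcg1, which passes cholesterol to mature lipoprotein particles, had 23.3, 25.2 and 26.3 CPM against 7.22, 6.60 and 7.28 CPM. It fell 3.55-fold (log2 -1.83, SE 0.09, adjusted p = 1.6e-12). Both are textbook LXR targets, and the values of neither gene came near an overlap between groups.

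The LXR genes themselves were lower. Nr1h2, the widely expressed LXR-beta, had 114.6, 113.9 and 117 CPM in young and 77.8, 72.1 and 73.7 CPM in aged libraries, a 1.55-fold fall (log2 -0.63, SE 0.04, adjusted p = 3.8e-10). Nr1h3, LXR-alpha of macrophages, liver and fat, had 21.7, 17.6 and 21.4 CPM against 16.6, 16.8 and 15.9 CPM, with the second young library close to the aged range. It was 1.23-fold lower (log2 -0.30, adjusted p = 0.0045), and 0.04 on the log2 scale and not called (adjusted p = 0.7) when scaled by library total. Soat1, which esterifies cholesterol for storage in droplets, rose from 75.3, 79.0 and 76.6 CPM to 128, 130.1 and 122 CPM. The rise was 1.65-fold (log2 0.72, SE 0.04, adjusted p = 4.6e-11), and all aged libraries lay above all young ones.

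**Figure D3:**
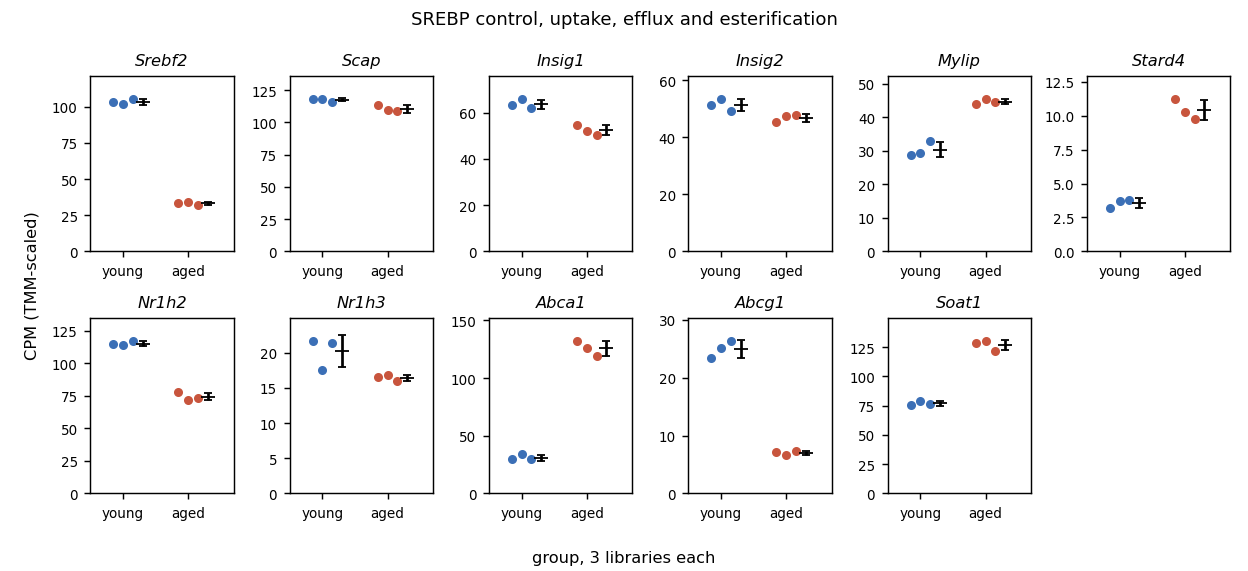
TMM-scaled CPM (vertical axes from 0) of the 11 members of SREBP control, uptake, efflux and esterification in each library, with the mean ± SD beside the 3 points of each group. Srebf2 and Abcg1 drop to about 33 and 7 CPM in aged libraries, and Abca1 climbs from about 30 to 119 CPM or more.

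Abca1, Abcg1, Nr1h3 and Soat1 are also active in macrophages, and Nr1h3 in fat cells, so markers of these cells were read in the same libraries. Of 16 macrophage and blood cell markers, 14 were in the table and 4 were abundant enough to test, of which 3 were lower in aged cells and 1 was higher. Cd14 had the highest mean over the 6 libraries, at 80.7 ± 0.773 CPM in young and 21.0 ± 0.600 CPM in aged cells (SD, n = 3 each). Lyz2 and Cd68, named after their values were seen, fell from 10.4 ± 1.33 to 0.173 ± 0.149 CPM and from 2.66 ± 0.763 to 0.784 ± 0.263 CPM. The summed level of the list was 93.9 to 96.8 CPM in young and 43.7 to 44.8 CPM in aged libraries. Csf1r, the macrophage growth factor receptor gene, named after its values were seen, went the other way from 0.322 ± 0.182 to 21.8 ± 0.552 CPM, a mean above that of Cd14 in aged cells. The summed level was thus mostly Cd14 in young libraries and mostly Cd14 and Csf1r in aged ones, and is not a measure of the whole list. The untested markers that were present had group means of at most 0.333 CPM. As given above, Ptprc and C1qa stood at 1 and 0 counts in all. The 10 adipocyte markers summed to 876 to 914 CPM in young and 70.5 to 76.7 CPM in aged libraries. All 8 tested ones were called lower, beside 41.8% of all tested genes. Adipoq and Lep were too low to test. Adipoq had 12, 18 and 3 counts in young and 2, 3 and 1 in aged libraries, and Lep had 1, 4 and 1 against 8, 7 and 10. Lpl, lipoprotein lipase, which had the highest mean over the 6 libraries, went from 290.5 ± 29.7 to 42.1 ± 1.49 CPM. Fabp4, the fatty acid carrier of fat cells, named after its values were seen, was above Lpl in young cells at 320.8 ± 10.2 CPM and had 1, 2 and 0 counts in the aged libraries. Endothelial markers summed to at most 0.678 CPM and erythroid markers to at most 1.87 CPM in any library, with Tek and Ahsp the highest of each list by the mean over the 6 libraries. Vwf, named after its values were seen, was above Tek in young cells (means 0.230 and 0.0273 CPM). The part of these cell types in the cholesterol results was not tested.

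Ratios of member counts within a library do not depend on how libraries are scaled. The pairs were chosen after their values were seen, so they describe the pattern and carry no test. The ratio of Abca1 to Abcg1 counts was 1.27, 1.34 and 1.12 in young and 18.3, 19.1 and 16.4 in aged libraries, 14.4-fold higher. Hmgcs1 over Mvk went from 1.06 ± 0.0879 to 6.53 ± 0.341, and Nsdhl over Ebp from 0.214 ± 0.0147 to 1.29 ± 0.0451 (SD, n = 3 each). Lss over Fdft1 went from 0.866 ± 0.0597 to 3.28 ± 0.189, and Sc5d over Dhcr7 from 2.88 ± 0.372 to 13.0 ± 1.58. The ratios of Insig1, Scap and Stard4 to Srebf2 were 2.56-fold, 2.93-fold and 9.11-fold higher in aged cells. None of the 8 ratios overlapped between the groups, which shows unequal change within each pair and not which gene of a pair changed.

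**Figure D4:**
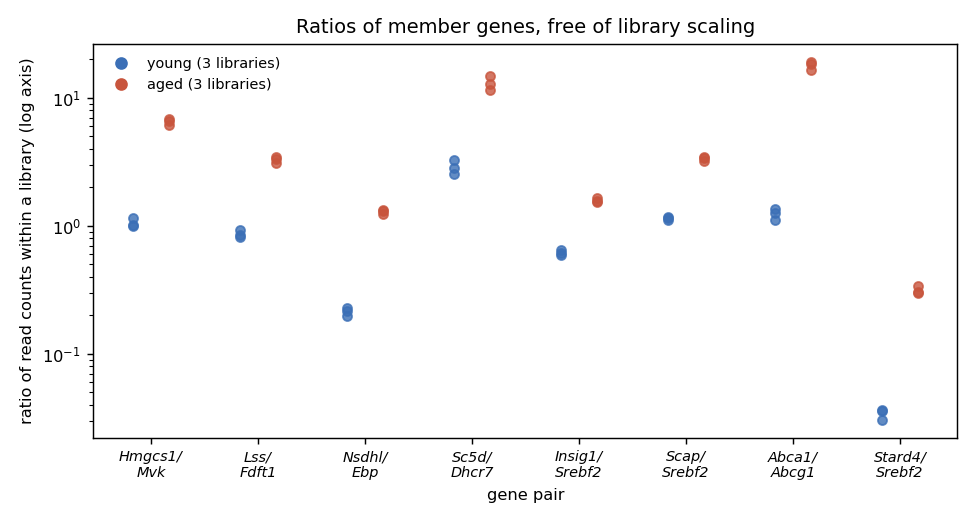
Ratio of read counts of gene pairs within each library (vertical log axis) for 3 young and 3 aged libraries. Aged points lie above young points for all 8 pairs, most widely for Abca1 over Abcg1 (16.4 to 19.1 against 1.12 to 1.34).

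Other genes of the pathway were read from lists grouped by function and chosen with earlier results of these data known, and each list had genes called in both directions. Of all tested genes, 44.7% were called higher and 41.8% lower, so mixed directions alone say little about the pathway. Of 16 genes of SREBP processing and turnover, 9 rose and 7 fell, with a median log2 fold change of 0.16. The Golgi proteases that release SREBP moved apart, as Mbtps1 (site-1 protease) fell from 374 ± 9.01 to 103 ± 5.42 CPM (3.63-fold, adjusted p = 4.4e-17) and Mbtps2 (site-2 protease) rose from 2.66 ± 0.219 to 18.9 ± 0.894 CPM (7.11-fold, adjusted p = 7.8e-14). Sec24a, a coat protein of the vesicles that leave the endoplasmic reticulum, rose 3.65-fold, and Rnf145, a ubiquitin ligase of sterol control, fell 2.32-fold. Of 10 other sterol and oxysterol enzyme genes, 8 fell, all by at least 2-fold, 1 rose and 1 was not called, with a median of -1.50. By comparison, 21% of all tested genes were called lower by at least 2-fold. This contrast carries no test, because the list was chosen with earlier results known. Hsd3b7, an enzyme of bile acid synthesis from oxysterols, fell 4.63-fold, from a mean of 44.8 to 9.67 CPM. Pgrmc1, a haem protein that binds cytochrome P450 enzymes, rose 2.18-fold. Cyp27a1, the sterol 27-hydroxylase, had 5.43 ± 1.23 and 4.52 ± 0.774 CPM and was not called (adjusted p = 0.18).

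The isoprenoid branch, which draws on the same mevalonate, had 2 genes higher, 6 lower and 3 not called of 11, with a median of -0.19. The counts of this list and of the next ones stand beside 44.7% higher and 41.8% lower of all tested genes. Ggps1, which makes geranylgeranyl diphosphate, rose 3.69-fold from 8.33 ± 0.579 to 30.8 ± 1.51 CPM, and Pggt1b, a subunit of a geranylgeranyl transferase, rose 3.61-fold. Dhdds and Nus1, the subunits of the enzyme for dolichol, fell 1.63-fold and 1.38-fold. Pdss1, Fntb and Rce1 were not called (adjusted p = 0.29, 0.9 and 0.12). Of 31 genes of sterol movement and uptake, 30 were tested, of which 11 rose and 17 fell, with a median of -0.34. Under library-total scaling, 12 of these were called higher and 13 lower, with a median of -0.0048. Vldlr, the very-low-density lipoprotein receptor gene, rose 10.6-fold from 16.0 ± 1.99 to 170 ± 3.77 CPM, and Osbpl8, a lipid exchanger at membrane contacts, rose 11.3-fold. Lrp1, a large endocytic receptor of lipoprotein remnants, fell 3.04-fold from 3457 ± 178 to 1135 ± 24.2 CPM, and Rxra, the partner receptor of LXR, fell 3.32-fold. Abcg4 and Pltp were not called (adjusted p = 0.7 and 0.63).

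Lipogenic genes that SREBP-1 controls had 4 members higher, 7 lower and 1 not called of 12, with a median of -0.22. Of all tested genes, 44.7% were called higher and 41.8% lower. Fads2 and Fads1, the desaturases of polyunsaturated fatty acids, fell 13.6-fold and 7.45-fold, from 129 ± 2.89 to 9.54 ± 0.464 CPM and from 116.5 ± 1.51 to 15.6 ± 0.728 CPM. Me1, malic enzyme, rose 3.95-fold to 133 ± 2.10 CPM, and Elovl6, a fatty acid elongase, rose 8.09-fold from 0.455 ± 0.166 to 3.71 ± 0.369 CPM. Acaca and Elovl5, the other members that rose, did so 1.16-fold and 1.18-fold, and Lpin1 was not called (adjusted p = 0.4). Scaled by library total, 4 members of this list were called lower in place of 7, and 5 genes of the isoprenoid branch were called higher in place of 2. The same scaling turned the median of the lipogenic list to 0.11 and that of the isoprenoid list to 0.15.

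**Figure D5:**
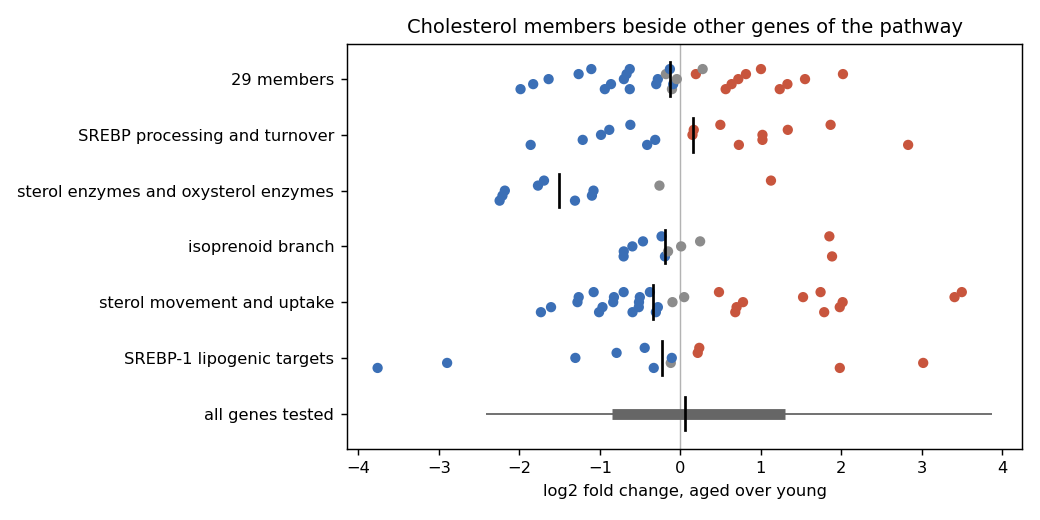
Log2 fold changes (aged over young, horizontal axis, TMM scaling) of the members and of 5 other lists, 1 point per gene (red higher, blue lower, grey not called) and a black tick at each median. The lowest line gives all tested genes, with a thick bar from -0.85 to 1.30 (the middle 50%) and a thin line from -2.41 to 3.87 (the middle 90%).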

How the data were processed

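Raw read counts were deposited by the authors as a single unnormalized table, whose rows are gene symbols and whose columns are the 6 libraries (3 young, 3 aged). The tools fastp, HISAT2 and HTSeq are named per the submitters' processing notes. Versions, genome build, annotation and strand setting were not given in the sources used here, so a gene and its antisense or overlapping neighbour may share reads. Columns were matched to samples by the library names in the labels. The counts were fitted in edgeR 4.0.16 under R 4.3.3 (filterByExpr with a minimum count of 10, TMM, glmQLFit and glmQLFTest, group as the only term), with Benjamini-Hochberg adjustment over 14273 genes. A standard error is the log2 change over the square root of its F statistic. The procedure was tested on simulated data. Alternatives were DESeq2 1.42.0, limma-voom (limma 3.58.1), other scalings, no filter, a minimum 1.5-fold change, a replicate block and leaving out each library.

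The members and lists were chosen with earlier results of these data known. All 29 members are named. Of each other pathway list, the 2 called genes with the smallest p in each direction are named, and of each marker list the gene with the highest mean CPM over the 6 libraries (3 for stromal markers). A gene that this rule names is not reported here. Other names were chosen after their values were seen. Of the replicate pairs within a group, all differed by more than sampling noise (chi-square over degrees of freedom 3.13 to 11.2).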

Additional observations from a re-analysis of the deposited data

How the results depend on the processing

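Under all 14 alternatives, 14 members kept their direction and call: Mvk, Idi1, Fdps, Fdft1, Lss, Nsdhl, Ebp, Sc5d, Dhcr7, Srebf2, Stard4, Abca1, Abcg1 and Soat1. Leaving out each library in turn gave 9 to 10 members higher and 13 to 16 lower, 6241 to 6565 of all genes higher and 5870 to 6012 lower, and 2 to 4 SREBP control genes lower. Scaling by library total, which shifted the log2 values of the members by 0.336, reversed Mvd (0.23), Cyp51 (0.29), Hsd17b7 (0.16), Scap (0.25), Insig1 (0.06), Insig2 (0.21) and Nr1h3 (0.037). It gave 5 post-lanosterol genes higher, 2 SREBP control genes higher and 1 lower, 5 isoprenoid genes higher and 4 lipogenic genes lower, and moved the share of called genes that were higher from 51.7% to 62.3%. Testing against a minimum change of 1.5-fold, which asks for more by construction, called 61.4% of all genes. It left 7 members higher and 7 lower, 5 synthesis enzymes lower, 1 mevalonate gene higher and 2 lower, and 1 squalene gene lower. It also left 1 gene lower each in SREBP control, LXR and efflux, and the isoprenoid branch, and 1 higher in uptake. Among the other lists it left 4 SREBP processing genes lower, 9 of sterol movement lower, and 2 lipogenic genes higher and 4 lower. With the replicate number as a block, 2 SREBP control genes were called lower, since Scap (adjusted p = 0.078) and Insig2 (adjusted p = 0.056) were not, and no other member changed its call. Same-numbered young and aged libraries did not deviate together (correlations across genes -0.013, 0.001 and 0.01), and not every library correlated best with its own number. With 3 libraries per group this check cannot exclude a pairing, for which the labels give nothing beyond the shared number. With no filter on low counts 20450 genes were tested. The few counts of Tm7sf2, Idi1, Stard4 and Hsd17b7, at 2.74 to 11.2 CPM, limit their precision, with standard errors of 0.13 to 0.20.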

Other observations

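Genes that take cholesterol out of lysosomes and to and from ester stores were divided in a way not described above, and these names were chosen after their values were seen. Npc1, the membrane protein that exports cholesterol from lysosomes, rose from 84.7 to 136 CPM (log2 0.68, SE 0.04, edgeR adjusted p = 7.7e-11), whereas Npc2, its soluble partner in the lysosome lumen, fell from 453 to 300 CPM (log2 -0.59, SE 0.04, edgeR adjusted p = 2.9e-11). Lipa, the lysosomal lipase that frees cholesterol from its esters, rose from 61.3 to 99.5 CPM (log2 0.70, edgeR adjusted p = 2.1e-10). Nceh1, a hydrolase of cholesterol esters outside lysosomes, rose from 20.3 to 67.9 CPM (log2 1.74, edgeR adjusted p = 2e-14), beside the rise of the esterifying enzyme gene Soat1. Soat2, the other esterifying enzyme, was too low to test. Values are means of 3 young and 3 aged libraries, and all 6 libraries of each gene tested here separated by group, as did those of 87.5% of all tested genes.

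Among the oxysterol enzyme genes, Ch25h and Cyp7b1 fell and Cyp27a1 was not called, as given above. Ch25h, cholesterol 25-hydroxylase, went from 12.3 to 3.60 CPM (log2 -1.77, SE 0.12, edgeR adjusted p = 2.2e-10), and Cyp7b1, which hydroxylates oxysterols, from 30.9 to 6.51 CPM (log2 -2.25, SE 0.10, edgeR adjusted p = 3.4e-13). Srebf1, which encodes SREBP-1 and is itself an LXR target, fell from 45.9 to 23.2 CPM (log2 -0.99, edgeR adjusted p = 1.6e-10). Of the transfer proteins of the Gramd1 family, which move cholesterol from the plasma membrane to the endoplasmic reticulum, Gramd1a fell (log2 -1.01, edgeR adjusted p = 1.9e-12), while Gramd1b rose (log2 1.52, edgeR adjusted p = 1.4e-10) and Gramd1c rose from 0.576 to 1.99 CPM (log2 1.79, edgeR adjusted p = 4.3e-05).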
